A study of Mus musculus with 6 samples.

Results

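The autophagy genes examined here were the rows of the deposited count table whose symbol begins with Atg and a digit, together with 20 named genes of the same pathway from Map1lc3a to Vmp1. The rule found 37 genes among the 23420 in the table, and 36 of them were among the 11974 genes with enough reads for testing. RNA-seq had been performed on mesenchymal stromal cells (MSCs) grown from the bone marrow of female C57BL/6 mice aged 6 to 8 weeks, cultured in AMEM with serum and transduced at passage 5 with the retroviral AP2 vector, which carries eGFP in both groups. The 3 libraries labelled Ctl MSC came from cells given the empty vector, and the 3 libraries labelled MSC-TPr from cells given a vector for the catalytic subunits of the thymoproteasome, which are β1i, β2i and β5t (genes Psmb9, Psmb10 and Psmb11), joined by self-cleaving linkers. The sources used here do not say whether the 3 libraries of a label came from separate animals or cultures. The p-values therefore set the difference between labels against the spread between libraries, which may be technical.

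Macroautophagy encloses cytoplasm in a double membrane, the autophagosome, and delivers it to the lysosome. A ULK kinase complex starts the process, a class III phosphatidylinositol 3-kinase complex marks the membrane, ATG2, ATG9 and WIPI proteins supply and shape it, and conjugation enzymes attach the ATG8 family proteins (LC3 and GABARAP) to it, where cargo receptors bind them. Autophagosomes also bring cytosolic antigen to lysosomes, and the pathway is therefore of interest in antigen-presenting cells. In the list, 4 genes belong to the initiation complex, 5 to the kinase complex, 7 to membrane supply, 7 to conjugation, 4 encode ATG4 proteases, 5 ATG8 proteins, 3 cargo receptors and 2 transcription factors.

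The libraries were examined before the genes. Reads on genes ranged from 16158756 to 22158887 per library, and 3 reads, taken as the detection limit, corresponded to 0.139 to 0.181 CPM (counts scaled by TMM to a common library size), a limit of counting error alone. The library labelled Ctl MSC 1 lay at -38.2 on the first principal component, beside MSC-TPr 2 and 3 at -41.6 and -40.3, whereas MSC-TPr 1 lay at 36.7, beside Ctl MSC 2 and 3 at 42.5 and 40.9. That component held 61.8% of the variance. The second component held 25.4% and kept the labels as given apart. Its values were -38.0, -16.9 and -16.2 across Ctl MSC 1 to 3 and 36.6, 21.5 and 13.0 across MSC-TPr 1 to 3. The averaged log2 CPM of 20 cell division genes divided the libraries as the first component did, at 6.46, 3.12 and 3.11 across Ctl MSC 1 to 3 and at 3.16, 6.31 and 6.43 across MSC-TPr 1 to 3. The transduced genes did not check the labels, since Psmb11 had 1 to 6 reads per library, and for both Psmb9 and Psmb10 the MSC-TPr values overlapped those of Ctl MSC. Of 10 MSC markers, 9 reached 1 CPM in every library and Thy1 did not, while 5 of 6 endothelial and 9 of 10 leukocyte markers stayed below 1 CPM in every library. Summed, the MSC markers reached 3150 to 8160 CPM in Ctl MSC and 2152 to 13992 CPM in MSC-TPr. Tests are therefore given over all 6 libraries and also without both libraries numbered 1. Whether the labels of these 2 libraries were exchanged was not tested, and an exchange would turn the sign of their share in every value over 6 libraries. The part of cell division in these results was not tested beyond the fit that included it as a covariate. Once both libraries numbered 1 are left out, the cell division average divides the remaining libraries exactly as the labels do. It was then at most 3.12 under the control label, against at least 6.31 for MSC-TPr. That fit cannot tell label and cell division apart, so its calls below describe labels that also differed in cell division.

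Over all 6 libraries, no autophagy gene was called lower or higher in MSC-TPr by edgeR's quasi-likelihood test, where calls required an adjusted p below 0.05 with a change of 0.5 or more on the log2 scale. Among all genes tested, 0.401% were called lower and 0.0251% higher. Below, fell and rose stand for called lower and called higher in the fit named. At an unadjusted p under 0.05, 1 autophagy gene (Ulk2) was lower and none was higher, while 15.0% of all genes tested reached it in either direction. DESeq2 also called none, against 2.62% of its genes lower and 1.46% higher, and 1 autophagy gene in each direction had an unadjusted p under 0.05, beside 13.1% of its genes in either direction. The log2 fold changes over 6 libraries (MSC-TPr relative to Ctl MSC) ran from -0.78 to 0.53, with a median of -0.03 beside 0.01 for all genes tested, and 20 of 36 were below 0.

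Without both libraries numbered 1, 11 of the 36 autophagy genes (30.6%) were called lower in MSC-TPr and none was called higher, beside 19.4% of all genes tested called lower and 20.6% called higher. The 11 were Ulk1, Ulk2 and Atg13 of initiation, Atg14 and Pik3c3 of the kinase complex, Atg2a of membrane supply, Atg7 and Atg10 of conjugation, Gabarapl1 and Map1lc3b of the ATG8 family, and the receptor Nbr1. The median log2 fold change of the list was then -0.34, against -0.002 for all genes tested, with 28 of 36 below 0. Between the libraries numbered 1 themselves, 9 of these 11 genes (81.8%) had their higher value in MSC-TPr 1, the exceptions being Ulk2 and Atg10. The same reversal was seen in 70.2% of the 4854 genes called in either direction without those libraries.

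With that cell division average as a covariate, 1 of 36 autophagy genes (2.78%) was called higher and none lower, beside 4.77% and 7.39% of all genes tested. That gene was Atg2b, a lipid transfer protein of the growing membrane, with a log2 change of 0.65 (SE 0.13, edgeR adjusted p = 0.0204). Atg2b is singled out after its values were seen. It stood at 38.1, 74.0 and 70.4 CPM across the Ctl MSC libraries and at 107, 58.4 and 70.0 CPM across those of MSC-TPr, so the groups overlapped. Over 6 libraries without the covariate its log2 fold change was 0.37 (edgeR adjusted p = 0.654), and without the libraries numbered 1 it was -0.17 (edgeR adjusted p = 0.336).

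**Figure D1:**
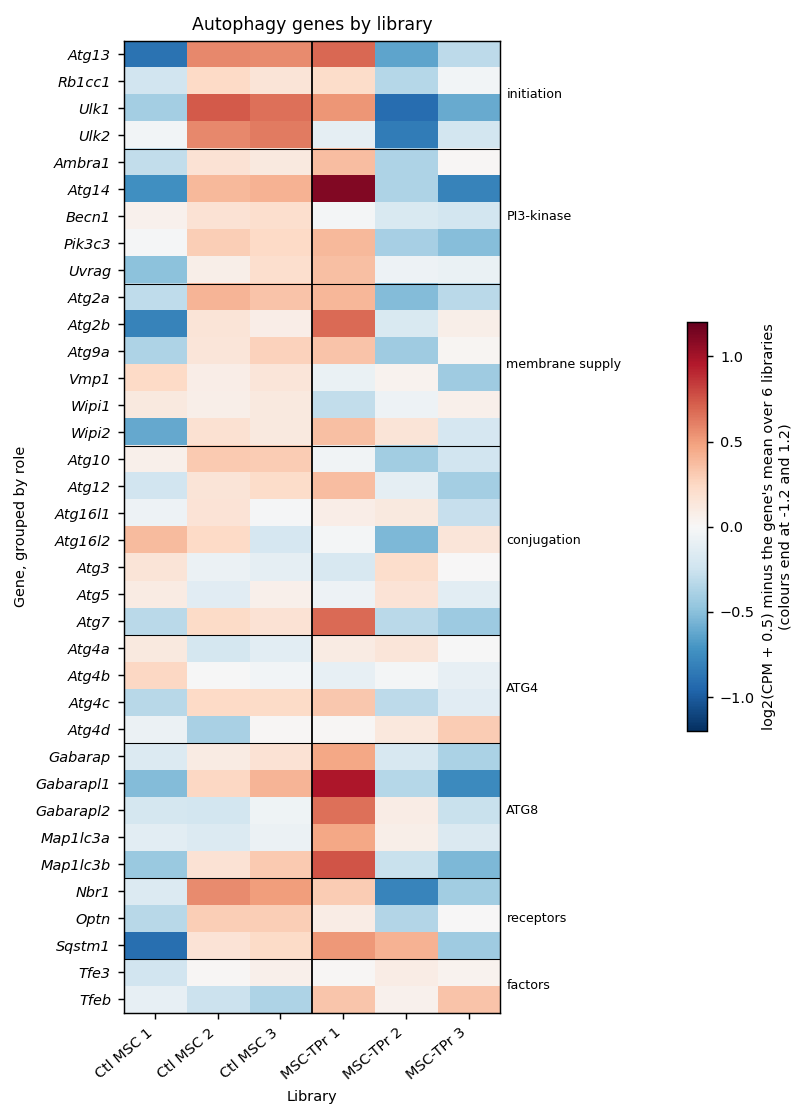
Level of each tested autophagy gene in each of the 6 libraries, as log2 CPM (0.5 CPM added) minus the gene's mean over the libraries, with genes in rows ordered by role and libraries in columns. In 23 of the 36 rows Ctl MSC 1 is the lowest Ctl MSC library and MSC-TPr 1 the highest MSC-TPr library.

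In RNA from whole cultures, fewer cells of a kind and less RNA per cell cannot be told apart. Within each label the first library stood apart for most of the list. In 23 of 36 genes (63.9%) Ctl MSC 1 was the lowest Ctl MSC library and MSC-TPr 1 the highest MSC-TPr library, beside 31.5% of all genes tested. The opposite arrangement was found in 3 genes (8.33%), namely Atg3, Atg4b and Wipi1, beside 32% of all genes. Summed over the list, the genes came to 3999, 6496 and 6749 CPM across Ctl MSC 1 to 3 and to 7918, 6287 and 4450 CPM across MSC-TPr 1 to 3, sums to which Sqstm1 contributed most. The median of the genes' deviations from their own means was -0.28 in Ctl MSC 1 and 0.31 in MSC-TPr 1 on the log2 scale, and lay between -0.19 and 0.14 in the other 4 libraries.

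All 3 MSC-TPr values lay below all 3 Ctl MSC values in 5 of 36 autophagy genes (13.9%), namely Ulk2, Becn1, Vmp1, Wipi1 and Atg10, beside 12.1% of all genes tested. They lay above in 2 genes (5.56%), Atg4d and Tfeb, beside 10.6% of all genes. In either direction this was 7 of 36 (19.4%), beside 22.6% of all genes tested.

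The initiation complex joins the kinases ULK1 and ULK2 with the scaffolds ATG13 and RB1CC1 (FIP200). Ulk2 (mm10, chr11:61775649-61855073, minus strand) stood at 77.8, 119 and 123 CPM across the Ctl MSC libraries and at 74.0, 44.4 and 68.3 CPM across those of MSC-TPr. Its groups were separated by the gap between Ctl MSC 1 and MSC-TPr 1 alone, while the other libraries lay further apart. The log2 fold change was -0.78 (SE 0.27, edgeR unadjusted p = 0.0249, adjusted p = 0.260) over 6 libraries and -1.10 (SE 0.21, edgeR adjusted p = 0.00826) without the libraries numbered 1. It was the most negative of the list over 6 libraries.

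Ulk1 (chr5:110784488-110810097, minus strand) stood at 44.5, 99.2 and 94.1 CPM across the Ctl MSC libraries and at 86.0, 31.2 and 38.8 CPM across those of MSC-TPr. Ctl MSC 1 lay among the MSC-TPr values and MSC-TPr 1 close to the other Ctl MSC values. Its log2 fold change was -0.61 (SE 0.47, edgeR adjusted p = 0.591) over 6 libraries and -1.46 (SE 0.14, edgeR adjusted p = 0.000914) without the libraries numbered 1, the most negative of the list in that fit. Atg13 (chr2:91674618-91710576, minus strand) stood at 36.7, 101 and 101 CPM across the Ctl MSC libraries and at 110, 43.7 and 54.6 CPM across those of MSC-TPr, again with the first library of each label on the other side. Its log2 fold change was -0.20 (edgeR adjusted p = 0.884) over 6 libraries, -1.04 (edgeR adjusted p = 0.00271) without the libraries numbered 1, and 0.26 with the cell division covariate. Rb1cc1 did not pass the test in either fit, with log2 fold changes of -0.10 and -0.37.

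The class III kinase complex consists of the lipid kinase PIK3C3 (VPS34) and its partners, among which ATG14 marks the form used in autophagy and UVRAG a form used on endosomes. Becn1 (chr11:101285952-101302286, minus strand), which encodes the scaffold Beclin 1, stood at 105, 115 and 117 CPM across the Ctl MSC libraries and at 99.7, 89.6 and 87.3 CPM across those of MSC-TPr. The groups did not overlap and the spread within each was small, but the difference was small as well, at -0.28 on the log2 scale (SE 0.13, edgeR adjusted p = 0.385). Without the libraries numbered 1 it was -0.38 (edgeR adjusted p = 0.0295), below the fold required for a call. Exons of Becn1 overlap those of Cntd1 on the opposite strand, and the sources used here do not say whether counting used the strand.

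Atg14 is given in full because it differed most between the libraries numbered 1, a choice made after its values were seen. It stood at 15.3, 33.9 and 34.6 CPM across the Ctl MSC libraries and at 56.2, 19.9 and 14.6 CPM across those of MSC-TPr, which places MSC-TPr 1 highest and MSC-TPr 3 and Ctl MSC 1 lowest. Its log2 fold change was 0.11 (SE 0.57, edgeR adjusted p = 0.945) over 6 libraries and -0.99 (SE 0.17, edgeR adjusted p = 0.00624) without the libraries numbered 1, while the ratio of MSC-TPr 1 to Ctl MSC 1 was 1.84 on the log2 scale. Pik3c3 fell by 0.73 on the log2 scale without the libraries numbered 1 (edgeR adjusted p = 0.0048), against -0.30 over all 6. Uvrag and Ambra1, whose product links Beclin 1 to the ULK complex, did not pass the test in either fit, with log2 fold changes of 0.13 and 0.02 over 6 libraries and -0.21 and -0.31 without the libraries numbered 1.

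**Figure D2:**
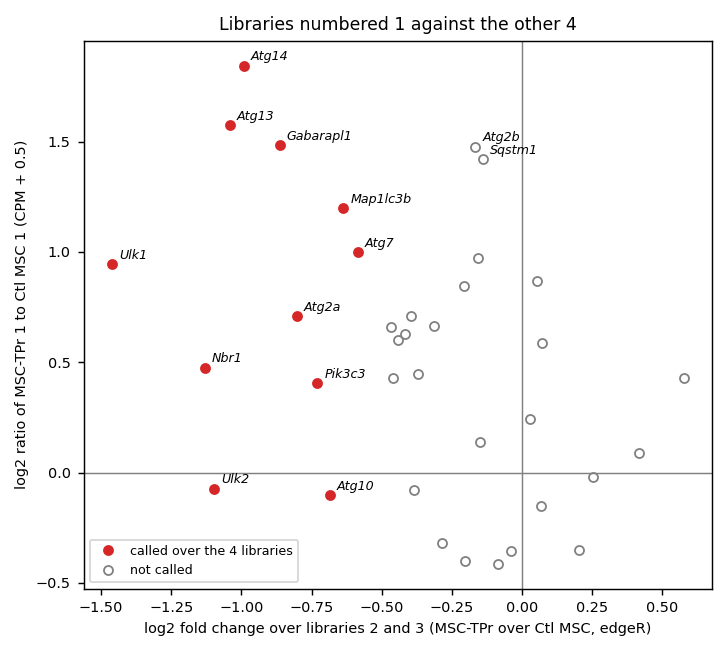
Log2 fold change of each tested autophagy gene without the libraries numbered 1 (horizontal axis) against the log2 ratio of MSC-TPr 1 to Ctl MSC 1 (vertical axis), each point 1 gene, filled where called without those libraries. Of the 11 genes called lower without the libraries numbered 1, 9 lie above 0 on the vertical axis, with Atg14 the highest at 1.84, and Ulk2 and Atg10 lie at -0.07 and -0.10.

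Membrane for the autophagosome comes through the scramblases ATG9A and VMP1, the lipid transfer proteins ATG2A and ATG2B, and the phosphoinositide readers WIPI1 and WIPI2. Vmp1 stood at 274, 246 and 257 CPM across the Ctl MSC libraries and at 220, 239 and 173 CPM across those of MSC-TPr. The groups did not overlap, although MSC-TPr 2 lay closer to Ctl MSC 2 than the Ctl MSC libraries lay to each other, and the log2 fold change was -0.30 (SE 0.17, edgeR adjusted p = 0.465) over 6 libraries and -0.28 (edgeR adjusted p = 0.221) without the libraries numbered 1. Exons of Vmp1 overlap Mir21a on the same strand, over 92 bases. Wipi1 stood at 60.7, 58.6 and 60.5 CPM across the Ctl MSC libraries and at 45.5, 53.5 and 58.4 CPM across those of MSC-TPr, with Ctl MSC 2 and MSC-TPr 3 nearly equal. Its log2 fold change was -0.19 over 6 libraries and -0.09 without the libraries numbered 1, past the test in neither fit. Atg2a fell by 0.80 on the log2 scale without the libraries numbered 1 (edgeR adjusted p = 0.0043), against -0.28 (edgeR adjusted p = 0.728) over 6 libraries. Atg9a, whose exons overlap Gm29253 on the same strand, and Wipi2 did not pass the test in either fit. Atg9b, the paralog of Atg9a, did not pass edgeR's filter on low counts. It had 1, 2 and 1 reads in Ctl MSC and 1, 9 and 12 reads in MSC-TPr, so that only MSC-TPr 2 and 3 lay above the detection limit. It was tested only by edgeR without that filter and by DESeq2, and was called in neither.

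Conjugation resembles ubiquitination: ATG7 acts as the activating enzyme, ATG3 and ATG10 as conjugating enzymes, and ATG12, ATG5 and ATG16L1 form the complex that attaches ATG8 proteins to lipid. Atg10 (chr13:90935356-91223968, minus strand) stood at 5.74, 6.94 and 6.89 CPM across the Ctl MSC libraries and at 5.31, 3.96 and 4.59 CPM across those of MSC-TPr. Its groups did not overlap, but Ctl MSC 1 and MSC-TPr 1 were nearly equal, with 95 and 96 reads. It was 1 of the 2 called genes whose CPM was lower in MSC-TPr 1 than in Ctl MSC 1. The log2 fold change was -0.50 (SE 0.23, edgeR adjusted p = 0.381) over 6 libraries and -0.69 (SE 0.19, edgeR adjusted p = 0.0285) without the libraries numbered 1. Atg7 fell by 0.58 (edgeR adjusted p = 0.00997) without those libraries, and its log2 fold change over all 6 was 0.02. Atg12 had -0.44 without the libraries numbered 1 (edgeR adjusted p = 0.0429), below the fold for a call, and Atg3, Atg5, Atg16l1 and Atg16l2 passed the test in neither fit.

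Promoter sequence was examined for the E-box CACGTG, the core of the element bound by TFEB and TFE3, which reads the same on both strands. RefSeq windows (GRCm38.p6) of 250 bases before to 50 bases after the start were matched for 31 of the 37 genes. The motif was found in 4 of them (12.9%), namely Atg14, Atg3, Atg5 and Atg7, beside 8.09% of 27025 genes with a window. By window it was in 4 of 39 (10.3%), beside 7.15% of 32851. The longer TCACGTGA, which contains the E-box, was found in 1 of 31 genes (3.23%), Atg3, beside 1.12% of all genes. The windows of the 4 genes are shown, 5′ to 3′ on the strand of the gene, with CACGTG in capitals, because they hold the motif of the transcription factors in the list. They lie at chr14:47568385-47568684 (minus strand) for Atg14, chr16:45158579-45158878 (plus) for Atg3, chr10:44268089-44268388 (plus) for Atg5 and chr6:114670846-114671145 (plus) for Atg7.
Atg14: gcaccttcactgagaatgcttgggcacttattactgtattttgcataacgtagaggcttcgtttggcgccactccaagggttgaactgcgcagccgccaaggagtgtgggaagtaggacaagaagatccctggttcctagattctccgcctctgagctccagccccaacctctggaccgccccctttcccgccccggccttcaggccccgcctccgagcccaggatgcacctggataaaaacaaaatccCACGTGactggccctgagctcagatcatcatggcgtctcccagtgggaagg
Atg3: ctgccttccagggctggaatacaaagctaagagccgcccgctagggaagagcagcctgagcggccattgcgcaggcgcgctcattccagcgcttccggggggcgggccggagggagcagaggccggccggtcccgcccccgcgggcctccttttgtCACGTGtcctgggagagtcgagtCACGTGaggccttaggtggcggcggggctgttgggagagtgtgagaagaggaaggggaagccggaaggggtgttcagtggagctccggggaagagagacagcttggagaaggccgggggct
Atg5: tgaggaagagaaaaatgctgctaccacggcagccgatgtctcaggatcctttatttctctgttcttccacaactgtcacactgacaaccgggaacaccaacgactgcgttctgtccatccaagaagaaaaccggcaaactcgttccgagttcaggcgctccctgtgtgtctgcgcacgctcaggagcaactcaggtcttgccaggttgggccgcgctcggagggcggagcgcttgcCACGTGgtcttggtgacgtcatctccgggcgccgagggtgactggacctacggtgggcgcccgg
Atg7: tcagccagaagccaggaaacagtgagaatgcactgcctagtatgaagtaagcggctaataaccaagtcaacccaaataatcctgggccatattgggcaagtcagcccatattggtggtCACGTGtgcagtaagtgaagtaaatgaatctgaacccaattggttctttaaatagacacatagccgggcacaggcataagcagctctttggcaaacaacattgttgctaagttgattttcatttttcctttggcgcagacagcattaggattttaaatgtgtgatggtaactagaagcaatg
The RefSeq start sites of Atg3 and Atg5 lie within 44 bases of the outermost GENCODE start of the gene, whereas that of Atg14 lies 2215 bases and that of Atg7 27999 bases inside the annotated gene, so the Atg7 window belongs to an internal start. Counted from the RefSeq start, with -1 the base before it, the motif begins at -1 in Atg14, at -94 and -71 in Atg3, at -14 in Atg5 and at -132 in Atg7. Of these 4 genes, Atg14 and Atg7 fell without the libraries numbered 1 and Atg3 and Atg5 did not pass the test, with log2 fold changes of 0.20 and 0.07. A match of letters in a window is a description only.

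ATG4 proteases cut the ATG8 precursors and later release them from lipid. None of the 4 genes was called in any of these fits. Atg4d stood at 9.97, 7.90 and 10.6 CPM across the Ctl MSC libraries and at 10.6, 11.5 and 13.1 CPM across those of MSC-TPr, with MSC-TPr 1 and Ctl MSC 3 nearly equal and a log2 change of 0.31 (SE 0.21, edgeR adjusted p = 0.541), which was 0.42 (edgeR adjusted p = 0.131) without the libraries numbered 1. Its exons overlap those of Kri1 on the opposite strand. Atg4a, which has a near-identical pseudogene, Atg4a-ps, and Atg4b had log2 fold changes of 0.15 and -0.15 over 6 libraries and 0.25 and -0.04 without the libraries numbered 1, and Atg4c had -0.09 over 6 libraries and -0.47 without the libraries numbered 1 (edgeR adjusted p = 0.0414), below the fold for a call.

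The ATG8 family proteins are the ubiquitin-like tags of the autophagosome membrane. Per kilobase of annotated exon, Gabarap had the highest level of the 5, with a mean of 271 CPM per kb in Ctl MSC and 265 in MSC-TPr, followed by Gabarapl1 with 163 and 170. Map1lc3a (49.8 and 59.8), Map1lc3b (48.2 and 49.8) and Gabarapl2 (44.2 and 57.2) were lower and lay close together. The value of Map1lc3b depends on the length used, since its longest transcript gives 94.9 and 98.1 CPM per kb. Gabarapl2 resembles 3 predicted genes in sequence, so its reads may be shared with them.

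**Figure D3:**
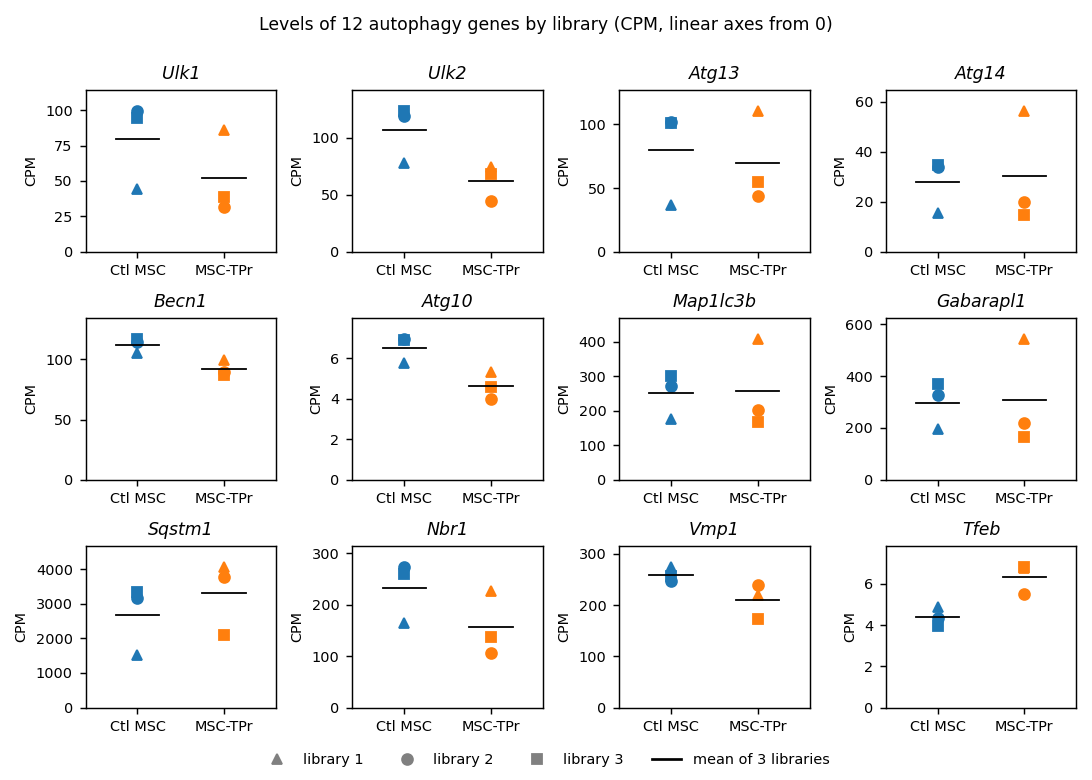
Level in CPM (vertical axes, linear and starting at 0) of 12 autophagy genes in each library, by label, with a marker shape for each library number and a line at the mean of the 3 libraries. In Gabarapl1 and Map1lc3b MSC-TPr 1 is the highest library, at 543 and 407 CPM.

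In all 5 ATG8 genes MSC-TPr 1 had the highest value of the 6 libraries. Gabarapl1 (chr6:129533160-129542346, plus strand) stood at 194, 329 and 368 CPM across the Ctl MSC libraries and at 543, 219 and 163 CPM across those of MSC-TPr. Its log2 fold change was 0.05 (SE 0.49, edgeR adjusted p = 0.970) over 6 libraries and -0.86 (SE 0.17, edgeR adjusted p = 0.00966) without the libraries numbered 1. Map1lc3b (chr8:121590361-121598760, plus strand) stood at 177, 272 and 301 CPM across the Ctl MSC libraries and at 407, 201 and 166 CPM across those of MSC-TPr, with log2 fold changes of 0.05 (edgeR adjusted p = 0.968) and -0.64 (edgeR adjusted p = 0.0138). Exons of Gabarapl1 overlap those of 1700101I11Rik. Both ATG8 genes had the groups apart when the libraries numbered 1 were left out and mixed when they were included.

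Gabarap stood at 318, 382 and 401 CPM across the Ctl MSC libraries and at 491, 312 and 272 CPM across those of MSC-TPr, with -0.03 over 6 libraries and -0.42 without the libraries numbered 1 (edgeR adjusted p = 0.038), below the fold for a call. Map1lc3a stood at 55.0, 53.7 and 57.2 CPM across the Ctl MSC libraries and at 83.0, 63.4 and 53.1 CPM across those of MSC-TPr, and Gabarapl2 stood at 71.6, 70.8 and 79.8 CPM across the Ctl MSC libraries and at 131, 87.8 and 68.5 CPM across those of MSC-TPr. These 2 genes were nearly level across the Ctl MSC libraries and spread widely across the MSC-TPr libraries. Their log2 fold changes over 6 libraries were 0.27 and 0.37, and without the libraries numbered 1 0.07 and 0.06, none past the test.

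The cargo receptors carry ubiquitinated cargo to ATG8 proteins. Sqstm1 (chr11:50199366-50210827, minus strand), which encodes p62, stood at 1519, 3175 and 3335 CPM across the Ctl MSC libraries and at 4064, 3790 and 2110 CPM across those of MSC-TPr. It was the most abundant of the list per kilobase, at 948 and 1177 CPM per kb. Ctl MSC 1 was lowest, and MSC-TPr 3 also lay below the other Ctl MSC libraries. The log2 fold change was 0.31 (SE 0.39, edgeR adjusted p = 0.758) over 6 libraries and -0.14 (edgeR adjusted p = 0.696) without the libraries numbered 1. Exons of Sqstm1 overlap Mrnip on the opposite strand. Nbr1 (chr11:101552149-101581951, plus strand), a receptor with a similar domain build, stood at 163, 273 and 260 CPM across the Ctl MSC libraries and at 227, 105 and 137 CPM across those of MSC-TPr. It fell by 1.13 on the log2 scale (SE 0.16, edgeR adjusted p = 0.00281) without the libraries numbered 1, and had -0.57 (SE 0.34, edgeR adjusted p = 0.485) over 6 libraries. Optn, which encodes optineurin, stood at 32.7, 50.8 and 50.7 CPM across the Ctl MSC libraries and at 44.1, 32.2 and 41.4 CPM across those of MSC-TPr, with log2 fold changes of -0.19 and -0.46 (edgeR adjusted p = 0.0498), the latter below the fold for a call.

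TFEB and TFE3 are related transcription factors that activate lysosomal and autophagy genes. Tfeb (chr17:47737030-47792419, plus strand) stood at 4.89, 4.33 and 3.97 CPM across the Ctl MSC libraries and at 6.75, 5.50 and 6.82 CPM across those of MSC-TPr. Every MSC-TPr library lay above every Ctl MSC library, but the test was not passed in either fit. The log2 fold change was 0.53 (SE 0.23, edgeR adjusted p = 0.338) over 6 libraries and 0.58 (SE 0.21, edgeR adjusted p = 0.0642) without the libraries numbered 1. Tfe3 had log2 fold changes of 0.09 and 0.03.

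**Figure D4:**
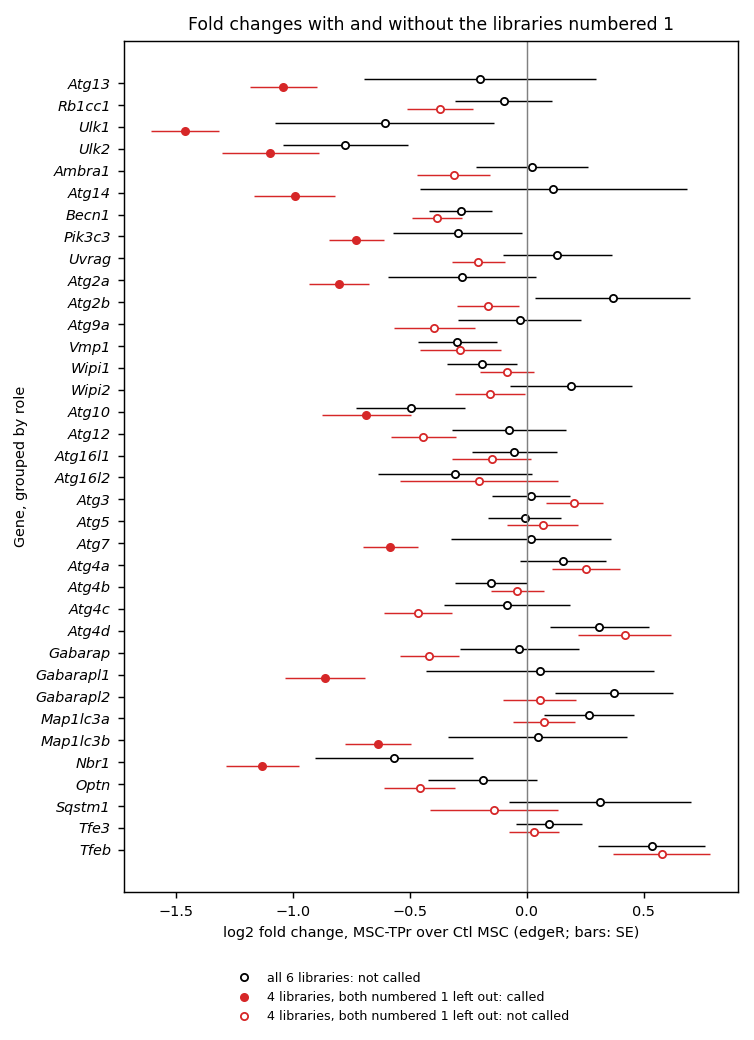
Log2 fold change of each tested autophagy gene (MSC-TPr relative to Ctl MSC) with its standard error, over all 6 libraries (black) and without the libraries numbered 1 (red, filled where called), in order of role. No black point is called and 11 red points are, all below 0, and the medians are -0.03 and -0.34.

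Other genes of the pathway were read from 5 further lists, none of which held a call over all 6 libraries, where the lowest adjusted p was 0.220. Without the libraries numbered 1, calls in these lists are read against 19.4% of all genes tested lower and 20.6% higher. Of 9 other assembly genes tested, 4 fell and 1 rose without the libraries numbered 1, with a median log2 fold change of -0.15 over 6 libraries and -0.73 in that fit. By the lowest p over 6 libraries in each direction, the genes named are Tecpr1, which tethers autophagosomes to lysosomes, at -0.50 and -1.43, and Tmem41b, a lipid scramblase, at 0.32 and 0.97, both called without the libraries numbered 1. Of 12 other receptors, 4 fell and 1 rose without the libraries numbered 1, against the same shares. Tollip, an adaptor of ubiquitinated cargo, stood at 57.1, 81.2 and 87.1 CPM across the Ctl MSC libraries and at 143, 110 and 112 CPM across those of MSC-TPr. Its groups did not overlap, and its log2 fold change was 0.70 (SE 0.21, edgeR adjusted p = 0.220) over 6 libraries and 0.40 (edgeR adjusted p = 0.0279) without the libraries numbered 1, below the fold for a call. With the cell division covariate Tollip was called, at 0.86 (edgeR adjusted p = 0.00463). Bnip3, a mitophagy receptor, did not overlap either, with 0.59 (SE 0.20, edgeR adjusted p = 0.247) over 6 libraries and 0.70 without the libraries numbered 1, where it was called. Fundc1 and Ccpg1 had -0.28 and -0.78 over 6 libraries, and -0.40 and -1.66 without the libraries numbered 1, where only Ccpg1 of this pair was called.

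Of 12 genes for fusion of the autophagosome with the lysosome, 5 were called lower and none higher without the libraries numbered 1, beside 19.4% and 20.6% of all genes tested. The groups of Stx17, the SNARE of the autophagosome, and Vps41, a HOPS tethering subunit, did not overlap, with log2 fold changes of -0.51 (SE 0.18, edgeR adjusted p = 0.263) and -0.64 (SE 0.23, edgeR adjusted p = 0.269) over 6 libraries. Both fell without the libraries numbered 1, Stx17 by 0.70 (edgeR adjusted p = 0.00544) and Vps41 by 0.97 (edgeR adjusted p = 0.00203). Vps41 was also called lower with the covariate, at -0.50 (edgeR adjusted p = 0.0390). Rab7, the late endosome GTPase, had 0.27 over 6 libraries and 0.02 without the libraries numbered 1. Of 16 lysosomal genes known as TFEB targets, 12 fell and none rose without the libraries numbered 1, again beside 19.4% and 20.6%, with a median of 0.06 over 6 libraries and -0.65 in that fit. With the covariate 3 rose, beside 4.77% of all genes tested, and none fell. Lamp1, a glycoprotein of the lysosomal membrane, and Atp6v0d1, a subunit of its proton pump, had 0.34 and 0.35 over 6 libraries and -0.51 and -0.38 without the libraries numbered 1, where Lamp1 was called (edgeR adjusted p = 0.0222). These lists overlap in function with the autophagy genes and were read as counts, with no test of the lists themselves.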

How the data were processed

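Bone marrow MSCs transduced with the empty AP2 vector (Ctl MSC) or with the thymoproteasome vector (MSC-TPr) were sequenced as 3 libraries per label. Libraries were made from polyadenylated RNA by a strand-specific method and read as pairs. The authors trimmed reads, aligned them to mm10 and used Htseq-count, and the counts per gene were deposited without normalization. The submitters' processing notes name CASAVA 1.8.2, Trimmomatic 0.35 and TopHat2 2.1.0. The strand setting of the counting is not given in the sources used here.

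Differences were tested with edgeR 4.0.16 under R 4.3.3 (TMM scaling, filterByExpr, quasi-likelihood F-test on group alone, Benjamini-Hochberg adjustment over all genes tested). Calls required an adjusted p below 0.05 with a change of 0.5 or more on the log2 scale. The standard error is the fold change divided by the square root of F. CPM use TMM-scaled library sizes. Reads not assigned to a gene, 13.8% to 20.8% of those listed, were left out of library sizes. They were reads on no annotated feature, ambiguous reads and reads whose alignment was not unique. DESeq2 1.42.0, a fit without the libraries numbered 1 and a fit with a cell division covariate (the mean log2 CPM of 20 genes) were alternatives. The sources used here do not say whether libraries with the same number are pairs. Correlations of their deviations from the label means were -0.779, -0.635 and -0.625. These cannot decide it, since the deviations within a label are tied together and the libraries numbered 1 stood apart in both labels. No pair of libraries of a label agreed within sampling noise. Ctl MSC 2 and 3 were the closest, with a chi-square per gene of 4.76. It was 50.0 for MSC-TPr 2 and 3 and 154 to 191 for pairs holding a library numbered 1. The common dispersion, edgeR's spread within a label, was 0.124 over 6 libraries and 0.0168 without the libraries numbered 1. In that smaller fit 54.5% of all genes tested had an unadjusted edgeR p under 0.05. The scripts were tested on simulated counts. Exon overlaps and lengths came from GENCODE vM21 (mm10) and promoters from RefSeq.

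Values in all 6 libraries are given for genes called over 6 libraries, genes whose groups did not overlap, genes called without the libraries numbered 1 by 1 or more on the log2 scale, the ATG8 family and the cargo receptors. Of the other lists, up to 2 genes per list and direction with the lowest p are named, and some that this rule selects are not reported here. The autophagy genes and the other lists were chosen with earlier results of these data known. Atg101 was not analysed here.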

Additional observations from a re-analysis of the deposited data

How the results depend on the processing

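No autophagy gene was called under RLE scaling, no filter or at least 10 reads in every library, no minimum fold, DESeq2 or the replicate block, nor when any 1 library was left out (0 to 0). Among all genes, calls numbered 51, 65 and 31 under the first 3 settings, 683 with DESeq2 and 0 with the replicate block. They numbered 0 without Ctl MSC 2, Ctl MSC 3 or MSC-TPr 3, 1 without MSC-TPr 2, 44 without MSC-TPr 1 and 108 without Ctl MSC 1. Where few or no genes were called at all, the absence of calls is not particular to the autophagy genes. Leaving out both libraries numbered 1 gave 11 calls, and the cell division covariate 1. Genes whose groups did not overlap numbered 7, against 27 (75.0%) without both libraries numbered 1, where 77.5% of all genes tested did not overlap. The 7 were 5 lower and 2 higher in MSC-TPr, but 6 lower and 1 higher with at least 10 reads in every library. Genes without overlap numbered 7 to 12 when 1 library was left out, with 11 (30.6%, all genes 47.5%) without Ctl MSC 1 and 12 (33.3%, all genes 41.6%) without MSC-TPr 1. The median log2 fold change was -0.34 without both libraries numbered 1 and -0.26 to 0.05 when 1 library was left out. With the replicate block, the median was -0.08.

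Directions of single genes turned without both libraries numbered 1 for Sqstm1 (-0.14), Wipi2 (-0.16), Atg2b (-0.17), Uvrag (-0.21), Ambra1 (-0.31), Atg7 (-0.58), Map1lc3b (-0.64), Gabarapl1 (-0.86), Atg14 (-0.99) and Atg5 (0.067). They turned with the covariate for Atg3 (-0.073), Rb1cc1 (0.036), Atg12 (0.078), Gabarap (0.10), Atg4c (0.10), Atg9a (0.15) and Atg13 (0.26), and with the replicate block for Map1lc3b (-0.046), Atg7 (-0.067), Atg14 (-0.11) and Gabarapl1 (-0.12). Atg5 turned with DESeq2 (0.0023) and without a filter (0.0029). The cause was not tested.

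When 1 library was left out, log2 fold changes with a turned direction ranged from -0.18 to 0.19 for Ambra1, -0.31 to 0.092 for Atg12, -0.70 to 0.050 for Atg13, -0.70 to 0.45 for Atg14, -0.12 to 0.069 for Atg16l1, -0.085 to 0.12 for Atg3, -0.30 to 0.051 for Atg4c, -0.10 to 0.058 for Atg5, -0.43 to 0.22 for Atg7, -0.23 to 0.15 for Atg9a, -0.33 to 0.14 for Gabarap, -0.63 to 0.37 for Gabarapl1, -0.44 to 0.29 for Map1lc3b, -0.24 to 0.036 for Rb1cc1, -0.049 to 0.27 for Uvrag and -0.023 to 0.33 for Wipi2.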

Other observations

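Of 15 genes of nutrient signalling through mTORC1 and AMPK, the kinases that hold autophagy back and start it, none was called over all 6 libraries. Without the libraries numbered 1, 5 fell and 3 rose, beside 19.4% and 20.6% of all genes tested, and the median log2 fold change was -0.02 over 6 libraries and -0.21 in that fit. Mtor, the kinase itself, stood at 56.4, 76.2 and 63.5 CPM across the Ctl MSC libraries and at 52.4, 30.8 and 51.5 CPM across those of MSC-TPr. Its groups did not overlap, and its log2 fold change was -0.54 (SE 0.25, edgeR adjusted p = 0.369) over 6 libraries and -0.76 (edgeR adjusted p = 0.0493) without the libraries numbered 1, where it was called. Rheb, the GTPase that activates mTORC1, stood at 160, 134 and 140 CPM across the Ctl MSC libraries and at 171, 259 and 176 CPM across those of MSC-TPr, with every MSC-TPr library above every Ctl MSC library and a log2 change of 0.48 (SE 0.21, edgeR adjusted p = 0.337), and it was called without the libraries numbered 1, at 0.67 (edgeR adjusted p = 0.0340). Prkab2, a regulatory subunit of AMPK, had -0.41 over 6 libraries and -0.27 without the libraries numbered 1, past the test in neither fit, and its groups did not overlap either.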
